A study of Mus musculus with 8 samples.

Results

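Sphingosine-1-phosphate (S1P) genes were followed across 4 groups of mouse embryonic fibroblasts (MEFs), the connective tissue cells of the embryo in culture. The 8 genes were 3 receptors (S1pr1, S1pr2 and S1pr3), both sphingosine kinases (Sphk1 and Sphk2), the lyase Sgpl1, the phosphatase Sgpp1 and the exporter Spns2. They were taken by name from a table of 49492 gene rows. All 8 were present, and all 8 were among the 16232 genes that were tested, a gene needing at least 2 samples with a value of 1 or more. The 8 genes were brought together because S1pr3 showed one of the strongest falls in starved WT MEFs, so the response to starvation in WT is given for them as a description without a test, as is every value of S1pr3 that involves WT samples.

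S1P is a lipid signal made inside the cell when a sphingosine kinase phosphorylates sphingosine, the backbone released from ceramide. Spns2 exports it, and outside the cell it binds G protein-coupled receptors that act on migration, contraction and survival, and in fibroblasts on matrix production. Sgpp1 dephosphorylates S1P back to sphingosine in the endoplasmic reticulum, and Sgpl1 cleaves it irreversibly, which is the exit from the whole sphingolipid pathway.

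RNA-seq was carried out to find genes whose expression after glucose withdrawal needs Pontin that can be methylated. Ruvbl1 encodes Pontin, an ATPase that works in chromatin remodelling complexes, and CARM1 is the enzyme that methylates its arginines. WT MEFs expressed Flag-tagged wild-type Pontin and RA MEFs a Flag-tagged Pontin with 2 of these arginines changed to alanine, each from a lentivirus in a hygromycin-selected stable line made from Pontin f/f MEFs that had been established by the 3T3 protocol. The study deletes the endogenous floxed copy of such lines with Cre virus, and the labels give only the Pontin form and the medium of each sample. Each line was kept in normal medium or under glucose starvation (glucose-free medium with dialyzed serum, for a time not given in the sources used here), with 2 samples in each of the 4 groups. Since each Pontin form was carried by 1 line, an effect of the Pontin form and a difference between the lines cannot be told apart.

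Values are in scaled CPM, the reads of a gene relative to a library size that had been adjusted by sample and brought to a common total, over 43205841 to 56363034 reads per sample. Ruvbl1, which the added Pontin copy can also feed, was at 28.0 ± 0.581 (SD, n = 2) in normal WT MEFs, 28.2 ± 0.378 in starved WT MEFs, 34.4 ± 3.38 in normal RA MEFs and 44.0 ± 1.54 in starved RA MEFs. All 8 markers of fibroblasts were expressed, and their summed value lay between 10001 and 10080 in normal WT MEFs, between 5306 and 5399 in starved WT MEFs, between 9905 and 10232 in normal RA MEFs and between 7007 and 7025 in starved RA MEFs. The 5 endothelial markers, a cell type known for S1pr1, summed to between 2.52 and 3.39 in normal WT MEFs. In starved WT MEFs they summed to between 8.92 and 9.43. The higher sum came through Kdr (means of 1.997 in normal and 6.39 in starved WT) and Tek (0.273 and 2.69). Pecam1 and Cdh5 were below 1 in every sample, and their means were lower in starved than in normal WT. In RA the endothelial sums were between 2.05 and 3.43 in normal medium and between 5.99 and 6.34 under starvation. The 5 haematopoietic markers summed to between 10.7 and 11.8 in normal and between 20.8 and 21.0 in starved WT samples, and to between 14.3 and 14.8 in normal and between 18.9 and 19.1 in starved RA samples, mostly through Csf1r, with Ptprc at no more than 2 reads, and the 5 epithelial markers stayed between 1.43 and 3.21 in sum over the 8 samples. In such bulk samples a loss of cells that express a gene and a lower level per cell cannot be told apart.

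The stretches in front of the start sites are shown for 2 receptors that were low under starvation and for the lyase, which was high, because these genes moved in opposite directions in the same samples. The sequences are RefSeq windows of 250 bases on GRCm38.p6, read 5′ to 3′ on the strand of the gene and ending at the base before the start site. All letters are in lower case because none of the motifs searched was found in them.

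S1pr3 (chr13:51408368-51408617, plus strand): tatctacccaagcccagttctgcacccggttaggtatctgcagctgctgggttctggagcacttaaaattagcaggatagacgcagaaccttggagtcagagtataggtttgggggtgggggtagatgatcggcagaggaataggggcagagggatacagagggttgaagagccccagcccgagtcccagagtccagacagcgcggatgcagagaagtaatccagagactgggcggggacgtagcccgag
S1pr2 (chr9:20976794-20977043, minus strand): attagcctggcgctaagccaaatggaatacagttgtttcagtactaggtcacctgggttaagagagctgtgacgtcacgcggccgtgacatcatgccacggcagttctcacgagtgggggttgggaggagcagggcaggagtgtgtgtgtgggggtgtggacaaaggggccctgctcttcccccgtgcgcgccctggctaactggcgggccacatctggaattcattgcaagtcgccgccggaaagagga
Sgpl1 (chr10:61147685-61147934, minus strand): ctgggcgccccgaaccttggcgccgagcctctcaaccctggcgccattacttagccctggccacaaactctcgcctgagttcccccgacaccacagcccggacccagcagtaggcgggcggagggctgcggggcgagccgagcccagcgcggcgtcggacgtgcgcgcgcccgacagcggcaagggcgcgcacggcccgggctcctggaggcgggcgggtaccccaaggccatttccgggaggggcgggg

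The windows differed in base composition, with 56.4% G or C in S1pr3, 59.2% in S1pr2 and 74.8% in Sgpl1, against a median of 52.4% over 32851 windows. The FOXO motif GTAAACA and the E-box CACGTG were searched on both strands. Over all windows 3.17% held the FOXO motif and 6.02% held the E-box. Neither was present in these 3 windows, nor in those of Sgpp1, Sphk2 and Spns2. An E-box was present in 2 of the 5 windows of Sphk1, which overlap and hold the same site. The windows of Spns2, the downstream window of Sphk2 and all Sphk1 windows but the most upstream lay inside their genes in GENCODE. The Sphk1 windows with the E-box were among these. The most upstream Sphk1 window and the Sgpl1 window overlapped the spans of their genes in part. No window of S1pr1 was available to search.

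S1pr3 had the widest relative range of the 3 receptors over the 4 groups. It encodes a receptor that couples to Gi, Gq and G12/13 proteins, and it lies on chromosome 13 (GRCm38 51408639 to 51422797, plus strand). Its value was 96.4 and 96.4 in the normal WT samples, 3.65 and 2.41 in the starved WT samples, 104 and 107 in the normal RA samples and 27.8 and 27.5 in the starved RA samples. Both starved RA samples lay far above both starved WT samples and far below every sample in normal medium, and no group overlapped with another.

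The starved mean of S1pr3 was 3.14% of the normal mean in WT, a level 31.8-fold lower, with single pairs of samples between 2.501% and 3.78%. It was the gene with the 3rd largest fall of the 16232 tested, at -4.61 (SE 0.095) on the log2(value + 1) scale. All log2 differences are given on this scale, which understates changes of low values. Each SE of such a difference rests on a variance shared over the 4 groups, not on the samples compared alone. Without starved WT replicate 1 the difference of S1pr3 was -4.835, and without starved WT replicate 2 it was -4.39. In RA the starved mean was 26.3% of the normal mean, 3.804-fold lower, and S1pr3 held rank 112 among the falls. This fall in RA was tested and passed (log2 difference -1.89, SE 0.095, limma Benjamini-Hochberg (BH)-adjusted p = 1.59e-11). The low values still rested on 174 and 132 reads in the starved WT samples, against 4432 and 4784 reads in the normal ones. Most low counts in each sample were even, and whether both mates of a pair were counted is not given. If they were, fewer fragments stood behind these reads.

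Between the genotypes, S1pr3 was 1.09 times as high in RA as in WT in normal medium and 9.14 times as high under starvation. The log2 difference RA minus WT was 0.13 (SE 0.095) in normal medium and 2.85 (SE 0.095) under starvation, and the RA response minus the WT response was 2.72 (SE 0.134). These are descriptions. The order of the 4 groups was normal RA, normal WT, starved RA and starved WT, and the first 2 of these differed least.

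S1pr1, the Gi-coupled receptor known from lymphocyte egress and vessel maturation, followed the same order of groups. Its value was 20.9 and 22.6 in normal WT MEFs, 2.10 and 2.41 in starved WT MEFs, 25.7 and 24.8 in normal RA MEFs and 10.4 and 9.75 in starved RA MEFs. Starved and normal samples did not overlap in either line, and both starved RA samples exceeded both starved WT samples. The starved mean was 10.3% of the normal mean in WT (single pairs 9.27% to 11.5%) and 39.9% in RA (37.9% to 41.9%). S1pr1 fell in RA (log2 difference -1.25, SE 0.0903, limma BH-adjusted p = 2.0e-09), and its difference in WT was -2.81 (SE 0.0903), untested.

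Under starvation S1pr1 was 4.47 times as high in RA as in WT (log2 difference 1.77, limma BH-adjusted p = 3.15e-11). In normal medium it was 1.16 times as high, and this difference did not pass the test (0.21, limma BH-adjusted p = 0.163) although the samples did not overlap. The 2 responses differed by 1.56 (SE 0.128, limma BH-adjusted p = 3.59e-08), the fall being the smaller in RA.

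S1pr2, which couples mainly to G12/13 proteins and restrains migration in many cells, showed the smallest proportional difference of the 3 receptors. Normal WT samples had 46.4 and 45.4, and starved WT samples had 14.9 and 15.7. Normal RA samples had 44.7 and 48.5, and starved RA samples had 31.7 and 30.02. The normal groups of the 2 lines overlapped, whereas the starved groups were apart from them and from each other.

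The starved mean of S1pr2 was 33.3% of normal in WT and 66.2% in RA. It fell in RA (log2 difference -0.58, SE 0.0603, limma BH-adjusted p = 2.08e-07), beside an untested -1.52 in WT. Under starvation RA was 2.01 times as high as WT (log2 difference 0.97, limma BH-adjusted p = 4.68e-10), while in normal medium the ratio was 1.02 (0.02, limma BH-adjusted p = 0.874). The responses differed by 0.95 (SE 0.0852, limma BH-adjusted p = 1.17e-07).

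**Figure D1:**
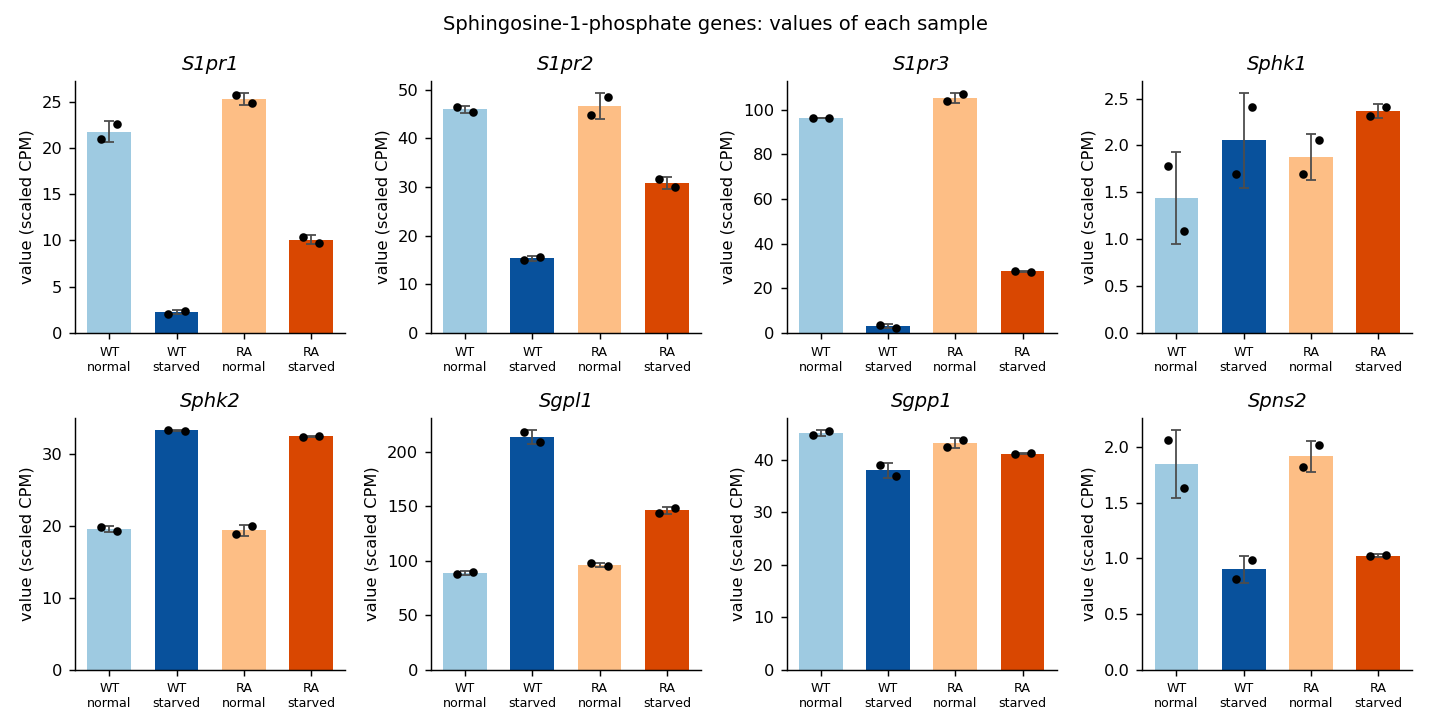
Value of each gene in scaled CPM (y axis, from 0) in the 4 groups (x axis). Bars are means, error bars are the SD of 2 samples and points are the samples. For S1pr1, S1pr2 and S1pr3 the starved RA samples lie between the starved WT samples and the samples in normal medium, and for Sgpl1 they lie below the starved WT samples.

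The other 2 receptors of the family were at the edge of detection. S1pr4, a receptor of blood cells, had 2 reads in 1 starved WT and 1 starved RA sample and none in the other samples, and S1pr5, known from natural killer cells and oligodendrocytes, had 0 to 4 reads. A floor of 3 reads corresponded to a value between 0.0548 and 0.069, and no fold was computed for either receptor.

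Levels of the 3 expressed receptors can be set beside each other only per length, here as scaled CPM per kb of exon in the GENCODE annotation. The lengths were 3.046 kb for S1pr1, 7.971 kb for S1pr2 and 4.463 kb for S1pr3. The annotation used for counting is not given in the sources used here, so the order and the shares depend on these lengths. In normal WT S1pr3 had 21.6 per kb, S1pr1 7.15 and S1pr2 5.76. In normal RA the order was the same, with 23.6, 8.30 and 5.85. The sum of the 3 was 34.5 ± 0.310 (SD, n = 2) in normal WT MEFs and 37.7 ± 0.611 in normal RA MEFs, and S1pr3 made up 62.6% ± 0.533 and 62.5% ± 0.276 of it.

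Under starvation the order of the receptors was different in WT. S1pr2 then led with 1.92 per kb, ahead of S1pr1 with 0.740 and S1pr3 with 0.679, and the sum was 3.34 ± 0.0519 (SD, n = 2). The share of S1pr3 was 20.3% ± 5.54 and that of S1pr2 57.6% ± 2.999, whereas the levels per kb of S1pr1 and S1pr3 did not differ beyond their spread. In starved RA S1pr3 remained first with 6.20 per kb, followed by S1pr2 with 3.87 and S1pr1 with 3.31. The sum there was 13.4 ± 0.347, of which S1pr3 made up 46.4% ± 0.884 and S1pr2 28.9% ± 0.356.

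**Figure D2:**
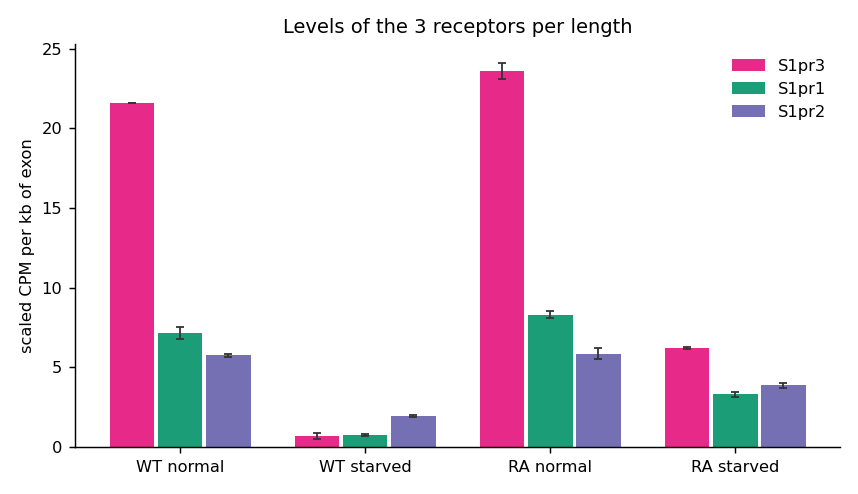
Scaled CPM per kb of exon (y axis, from 0) of the 3 expressed receptors in the 4 groups (x axis), with bars for means and error bars for the SD of 2 samples. S1pr3 is highest in both normal groups and in starved RA MEFs, and S1pr2 is highest in starved WT MEFs.

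Of the enzymes, the lyase Sgpl1 showed the largest log2 difference under starvation in WT, and Sphk2 the largest in RA. Sgpl1 resides in the endoplasmic reticulum and lies on chromosome 10 (GRCm38 61098642 to 61147703, minus strand). Its value was 87.6 and 90.0 in normal WT MEFs, 218 and 209 in starved WT MEFs, 97.7 and 95.1 in normal RA MEFs and 144 and 149 in starved RA MEFs. All starved samples were above all samples in normal medium, and the starved WT samples were the highest.

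The starved mean of Sgpl1 was 240% of normal in WT (single pairs 232% to 249%) and 151% in RA (147% to 156%). Sgpl1 rose in RA (log2 difference 0.59, SE 0.0404, limma BH-adjusted p = 8.57e-10), beside an untested 1.26 in WT. Under starvation it was lower in RA than in WT (log2 difference -0.55, limma BH-adjusted p = 4.22e-09). The responses differed by -0.66 (SE 0.0571, limma BH-adjusted p = 6.79e-08), and in normal medium the lines differed by 0.12, which did not pass (limma BH-adjusted p = 0.0796).

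Sphk2, the sphingosine kinase found largely in the nucleus and on internal membranes, was higher under starvation by a similar proportion in both lines. It had 19.9 and 19.2 in normal WT MEFs and 33.4 and 33.3 in starved WT MEFs. The RA samples had 18.9 and 19.9 in normal medium and 32.4 and 32.6 under starvation. The starved mean was 170% of normal in WT and 168% in RA, and no starved sample overlapped with a normal one.

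The rise of Sphk2 in RA passed the test (log2 difference 0.72, SE 0.061, limma BH-adjusted p = 1.63e-08). The difference between the responses was -0.02 (SE 0.0862, limma BH-adjusted p = 0.852). Sphk2 shares 539 exon bases (12.96% of its exon length in GRCm38) with Dbp and 373 (8.97%) with Rpl18, both on the opposite strand. Whether reads were assigned by strand is not given in the sources used here, and a part of Rpl18 in the values of Sphk2 was not tested. Rpl18, a ribosomal protein gene, was itself higher under starvation, with means of 357 and 599 in WT and of 392 and 471 in RA, whereas Dbp had means between 4.65 and 8.32.

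Sphk1, the cytoplasmic kinase that growth factors activate, was expressed at a low level. Its value was 1.78 and 1.09 in normal WT MEFs, 1.70 and 2.41 in starved WT MEFs, 1.70 and 2.05 in normal RA MEFs and 2.31 and 2.42 in starved RA MEFs, which amounts to 54 to 132 reads per sample. The WT groups overlapped. The RA groups did not overlap, but the difference did not pass the test (log2 difference 0.23, SE 0.157, limma BH-adjusted p = 0.209). Per kb, Sphk2 made up between 92.2% and 94.9% of the kinase sum in the group means of all 4 groups.

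Sgpp1, the phosphatase that returns S1P to sphingosine, varied little. It had 44.7 and 45.6 in normal WT MEFs, 39.0 and 37.0 in starved WT MEFs, 42.5 and 43.8 in normal RA MEFs and 41.1 and 41.3 in starved RA MEFs. The starved mean was 84.1% of normal in WT and 95.4% in RA, where the difference did not pass (log2 difference -0.07, SE 0.0509, limma BH-adjusted p = 0.260). The difference between the responses was at the threshold (0.18, SE 0.0719, limma BH-adjusted p = 0.0494), and it missed the threshold under 11 of the 18 alternatives run for it, with adjusted p between 0.0530 and 0.159.

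Spns2, the exporter, was low in all samples, with 39 to 104 reads. It had 2.07 and 1.63 in normal WT MEFs, 0.817 and 0.987 in starved WT MEFs, 1.82 and 2.02 in normal RA MEFs and 1.02 and 1.03 in starved RA MEFs. Starved samples were below normal samples in both lines, at 48.8% of the normal mean in WT and 53.5% in RA. Spns2 fell in RA (log2 difference -0.52, SE 0.134, limma BH-adjusted p = 0.00233), and the responses did not differ by the test (0.06, SE 0.190, limma BH-adjusted p = 0.828). It shares 131 exon bases (3.21%) with Mybbp1a on the opposite strand, a gene with group means between 475 and 590.

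**Figure D3:**
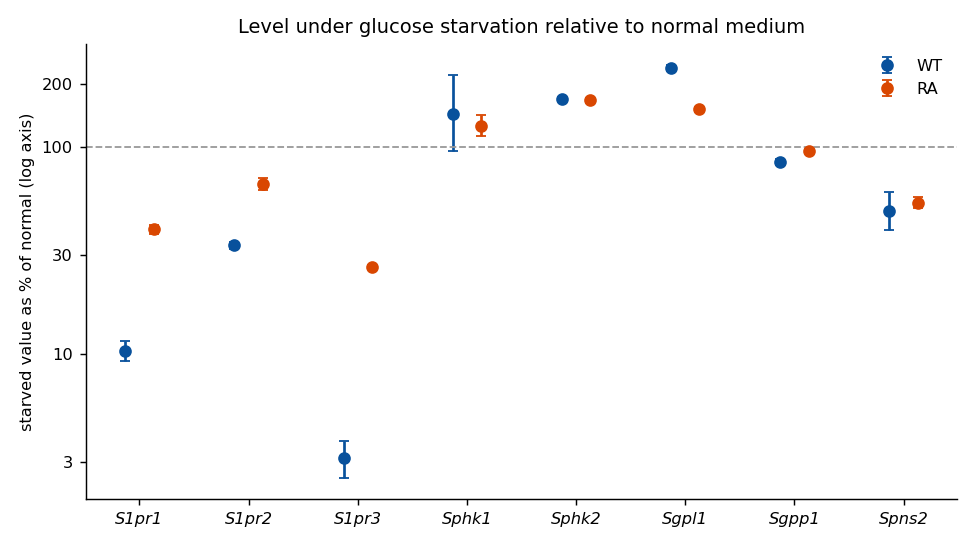
Starved mean as a percentage of the normal mean (y axis, log scale) of each gene (x axis) in WT and RA. Bars span the lowest and highest ratio of single samples, and the dashed line marks 100%. WT lies below RA for the 3 receptors and above RA for Sgpl1, and the lines lie together for Sphk2.

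Over the 8 genes, 6 were called in the starvation response of RA at a limma BH-adjusted p below 0.05, with 2 higher (Sphk2 and Sgpl1) and 4 lower (S1pr1, S1pr2, S1pr3 and Spns2), where 68.7% of all tested genes were called, 35% higher and 33.7% lower. The median log2 difference of the 8 was -0.30, against 0.01 over all tested genes. In WT the median was -0.41, against 0.00488 over all tested genes, and 78.6% of all genes were called. Normal and starved samples did not overlap for 7 of the 8 genes in WT and 8 of 8 in RA, beside 88.7% and 83.3% of all tested genes.

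In normal medium none of the 7 genes tested between the genotypes was called by limma, nor by edgeR or DESeq2 on recovered reads, and 2 (S1pr1 and Sgpl1) had an unadjusted limma p below 0.05. Of all genes 9.63% were called in that comparison, 6.68% higher and 2.95% lower in RA. The WT and RA samples did not overlap for 4 of the 8 genes in normal medium, beside 53.2% of all tested genes, and for 7 of 8 under starvation, beside 81.5%. Under starvation 3 of the 7 were called, with S1pr1 and S1pr2 higher and Sgpl1 lower in RA, beside 62.9% of all genes, of which 30.8% were higher and 32.1% lower. The responses differed for 4 of the 7 (S1pr1, S1pr2, Sgpl1 and Sgpp1), beside 50.6% of all genes (24.5% with a positive and 26.1% with a negative difference), and with 7 or 8 genes none of these counts sets the S1P genes apart from all tested genes. For S1pr1, S1pr2 and Sgpl1 the response in RA had the direction seen in WT and was smaller in size.

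**Figure D4:**
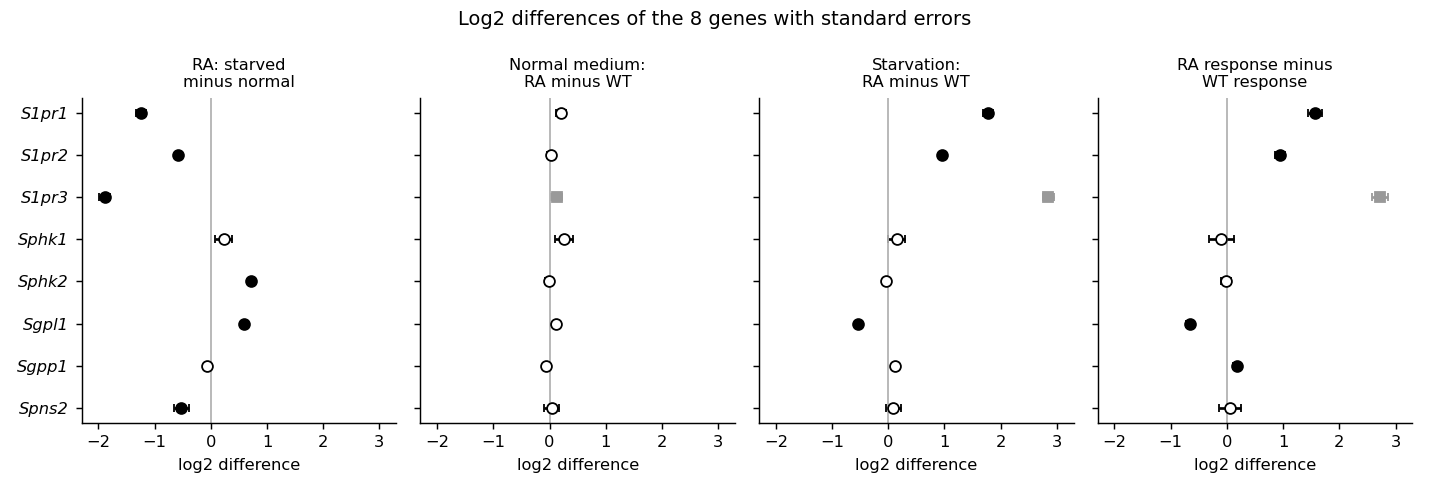
Log2 differences with standard errors (x axis) of the 8 genes (y axis) in 4 comparisons. Filled circles passed a limma BH-adjusted p of 0.05, open circles did not, and grey squares (S1pr3) were not tested. S1pr1 and S1pr2 lie above 0 and Sgpl1 below 0 in the starved comparison of the genotypes and in the difference of the responses, and no tested gene is filled in normal medium.

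The similarity of patterns was described by Pearson's r with S1pr3 on the log2(value + 1) scale over the 8 samples, which share only 4 groups. Among the 8 genes r was 0.995 for S1pr1, 0.995 for S1pr2, 0.941 for Sgpp1, 0.872 for Spns2, -0.417 for Sphk1, -0.864 for Sphk2 and -0.977 for Sgpl1. How many other genes reached such values was not counted, so the values do not set these genes apart. Among 12098 genes with a mean value of at least 5, those most like S1pr3 were Ppl (0.999), Trim16 (0.998), Tnfaip8 (0.998), Def8 (0.998) and Col1a2 (0.998). Col1a2, a chain of type I collagen and one of the fibroblast markers, had means of 2102 in normal WT MEFs, 271 in starved WT MEFs, 2022 in normal RA MEFs and 910 in starved RA MEFs. Ppl, which encodes the plakin periplakin, had 13.2, 1.42, 13.7 and 5.87 in the same order. The summed fibroblast markers were also lower under starvation in both lines, and more so in WT, but single markers did not all follow the sum. Fn1 had means of 2357 and 2413 in normal and starved WT and of 2370 and 3173 in RA. Vim had 3189 and 2148 in normal and starved WT and 3443 and 1834 in RA. The part of the fibroblast markers in the receptor values was not tested.

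The wider pathway was described with 4 lists of 76 genes, of which 64 were tested. In WT 54 of the 64 (84.4%) were called in the starvation response, 28 higher and 26 lower, and in RA 51 (79.7%) were called, 27 higher and 24 lower. These shares stand beside 78.6% of all genes in WT (39.3% higher and 39.2% lower) and 68.7% in RA (35% higher and 33.7% lower). The responses differed for 35 of the 64 (54.7%, beside 50.6%). In normal medium 4 (6.25%, beside 9.63%) differed between the genotypes, namely Asah2 higher and Cers4, Arhgef1 and Plcb3 lower in RA.

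Of the sphingolipid pathway, from serine palmitoyltransferase to ceramide and its products, 31 of 37 genes were tested. Starvation raised 15 and lowered 11 in WT (83.9% called, beside 78.6% of all genes). In RA it raised 15 and lowered 10 (80.6%, beside 68.7%). Kdsr, the reductase of the second step of sphingoid base synthesis, had means of 15.8 and 63.5 in normal and starved WT and of 18.2 and 32.5 in RA (log2 differences 1.94 and 0.81). Its responses differed by -1.14 (SE 0.108, limma BH-adjusted p = 2.11e-07).

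Cers6, a ceramide synthase of shorter acyl chains, rose from 50.1 to 102 in WT MEFs and, in RA MEFs, from 48.7 to 129 (log2 differences 1.01 and 1.39). Cers4, another ceramide synthase, fell from 38.5 to 17.4 in WT MEFs and, in RA MEFs, from 31.8 to 23.2 (-1.10 and -0.44). The differences between the responses passed for Cers6 (0.38, limma BH-adjusted p = 0.000234) and for Cers4 (0.66, limma BH-adjusted p = 5.26e-05). Sgms2, a sphingomyelin synthase, fell in both lines (-0.78 in WT and -0.60 in RA), as did Sptssa, a small subunit of serine palmitoyltransferase (-0.63 and -0.64).

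Asah2, the neutral ceramidase, moved in opposite directions, with means of 17.6 and 13.6 in normal and starved WT (log2 difference -0.35, limma BH-adjusted p = 0.00019) and of 23.8 and 38.2 in RA (0.66, limma BH-adjusted p = 2.0e-07). Ormdl2, a regulator of serine palmitoyltransferase, rose by 1.52 in WT and 0.50 in RA. Of its exon bases 66.7% are shared with Dnajc14 on the opposite strand, which had means of 90.3 and 107 in normal and starved WT and of 91.1 and 94.7 in RA, so its values are uncertain.

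Of the list of S1P transport and lipid phosphatases, 7 of 9 genes were tested, with 1 higher and 2 lower in WT (42.9% called, beside 78.6% of all genes) and 2 higher and 2 lower in RA (57.1%, beside 68.7%). Plpp3, a lipid phosphate phosphatase of the cell surface that degrades S1P and lysophosphatidic acid, had means of 28.1 and 5.91 in normal and starved WT and of 30.6 and 18.2 in RA. It fell in both lines, by log2 differences of -2.07 in WT and -0.72 in RA, and the responses differed by 1.36 (SE 0.0993, limma BH-adjusted p = 8.84e-09).

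Plpp1, a phosphatase of the same family, had means of 86.2 and 47.9 in normal and starved WT and of 88.2 and 126 in RA. It fell in WT (log2 difference -0.83, limma BH-adjusted p = 2.72e-11) and rose in RA (0.51, limma BH-adjusted p = 3.39e-08). Its annotated exons share 452 bases (25.8%) with Skiv2l2, named Mtrex in the annotation, on the opposite strand, which fell from 120 to 94.5 in WT MEFs and, in RA MEFs, from 117 to 89.3. The third phosphatase, Plpp2, fell in RA (-0.18), and its difference in WT was -0.08 (limma BH-adjusted p = 0.0898). Abcc1, an ABC transporter that can export S1P, rose by 0.10 in WT and 0.17 in RA.

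Of the receptor signalling list, made of G proteins, exchange factors, phospholipases and arrestins, 20 of 21 genes were tested. In WT 9 rose and 10 fell (95% called, beside 78.6% of all genes). In RA 8 rose and 9 fell (85%, beside 68.7%). Gnai2, a Gi subunit through which S1P receptors signal, fell from 306 to 153 in WT MEFs and, in RA MEFs, from 296 to 171 (log2 differences -0.998 and -0.79). Arrb1, a beta-arrestin, fell from 18.0 to 5.20 in WT MEFs and, in RA MEFs, from 14.7 to 6.50 (-1.62 and -1.06), while the second beta-arrestin, Arrb2, rose by 0.58 and 0.22. Arhgef11, a guanine nucleotide exchange factor downstream of G12/13, rose by 0.93 and 0.94. Plcb4, a phospholipase C, rose by 0.31 and 0.76, and Gna13, a G12/13 subunit, by 0.53 and 0.16. Arhgef11 shares 991 exon bases (12.5%) with Lrrc71 on the opposite strand. The highest group mean of Lrrc71 was 14.9, and a part of Lrrc71 in the values of Arhgef11 was not tested.

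Of the related lysophospholipid receptors and autotaxin, 6 of 9 genes were tested. In WT 3 were higher and 3 lower (100% called, beside 78.6% of all genes). In RA 2 were higher and 3 lower (83.3%, beside 68.7%). Lpar1, the main receptor for lysophosphatidic acid in fibroblasts, had means of 52.2 and 11.9 in normal and starved WT and of 51.8 and 21.1 in RA. It fell in both lines, with log2 differences of -2.04 in WT and -1.25 in RA, and the responses differed by 0.79 (SE 0.0972, limma BH-adjusted p = 4.23e-06). Lpar6 fell in both lines (-0.42 and -0.48) without a difference between the responses that passed (-0.07, limma BH-adjusted p = 0.716). It shares 408 exon bases (7.56%) with Rb1 on the opposite strand. Rb1 had means of 22.2 and 18.0 in normal and starved WT and of 20.4 and 17.9 in RA, and a part of Rb1 in the values of Lpar6 was not tested. Lpar2 rose by 0.28 in WT, and its difference in RA was 0.15 (limma BH-adjusted p = 0.134).

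**Figure D5:**
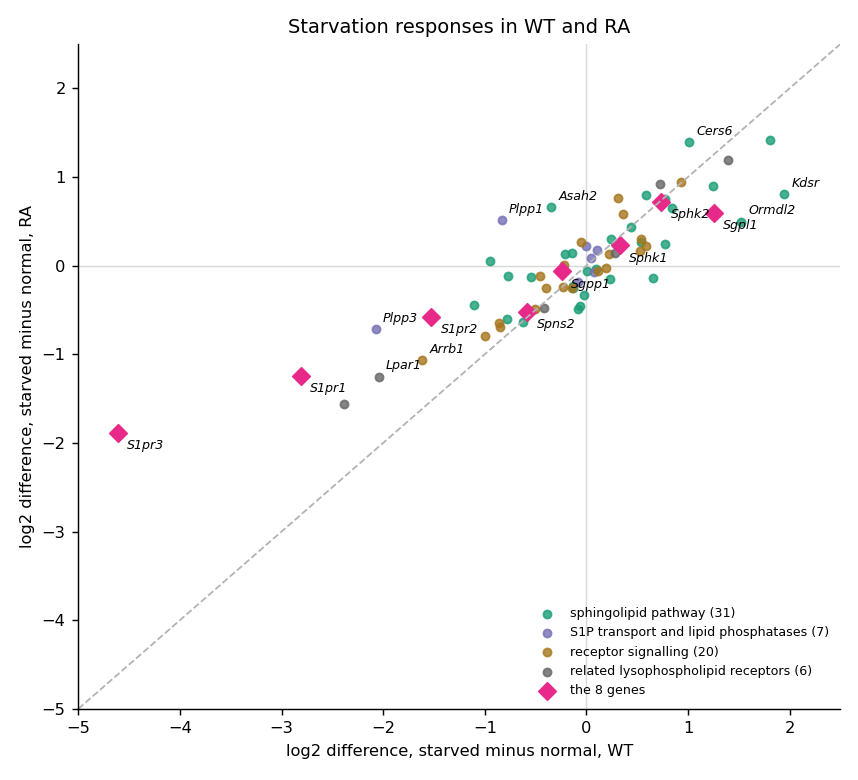
Log2 difference starved minus normal in WT (x axis) and RA (y axis) of the 8 genes (diamonds) and of the 64 tested genes of the 4 pathway lists (circles). On the dashed line both responses are equal. S1pr1, S1pr2, S1pr3, Plpp3 and Lpar1 lie above the line on the falling side, Sgpl1 and Kdsr lie below it on the rising side, and Plpp1 and Asah2 lie in the quadrant that is lower in WT and higher in RA.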

How the data were processed

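PolyA RNA libraries of 8 samples had been prepared with the TruSeq v2 kit, sequenced in pairs on an Illumina HiSeq and mapped to mm9. The submitters' processing notes name TopHat2 2.0.9, bedtools and edgeR. The counting settings, the annotation and the handling of strand are not given in the sources used here. The authors deposited 1 table of normalised signal, the counts of each gene relative to a scaled library size (scaled CPM). Its minus columns were taken as normal medium and its plus columns as glucose starvation, as the study marks them. In every sample 100% of the values above 0 were whole reads within 0.05, so reads were recovered. Between 78.2% and 80.5% of counts from 1 to 9 were even, so edgeR was also run on reads halved.

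Groups followed the labels. Limma 3.58.1 (R 4.3.3) was fitted to log2(value + 1) of all 8 samples with 1 mean per group, a mean-variance trend and 2-sided tests, BH-adjusted over 16232 genes, and calls were made at an adjusted p below 0.05. The fit was tested on simulated data in which a small set of genes was changed, in the starved RA samples only. That setting cannot show how the fit behaves where most genes respond, as they did here under starvation. edgeR 4.0.16 and DESeq2 1.42.0 on recovered reads, other scalings, filters and pseudocounts, a replicate block and leaving out each sample served as alternatives. The study says in general that its experiments were repeated independently, but neither the labels nor its RNA-seq methods say whether the 2 samples of a group were separate cultures. If they were not, the p-values measure only the spread between these samples, which may be technical. The 8 genes, the lists and the markers were chosen with earlier results of these data known. Named genes were the 8 genes, S1pr4 and S1pr5, in each list the 2 called genes at either end of each starvation response and of the difference between the responses (mean value at least 5), and the 5 genes most like S1pr3. A gene that this rule names is not reported here. Genes outside this rule (overlapping genes, markers, the genes called in normal medium) were named after their values were seen. Loci and lengths are from GENCODE on GRCm38, not the build of the files. No molecular tags are described, so limits from reads cover counting error only.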

Additional observations from a re-analysis of the deposited data

Results flagged for a closer look

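The response to glucose starvation differed between WT and RA MEFs, by the test of the difference itself, for 4 of the 7 genes tested. The RA response minus the WT response on the log2 scale was 1.56 for S1pr1 (limma BH-adjusted p = 3.59e-08), 0.945 for S1pr2 (limma BH-adjusted p = 1.17e-07), -0.662 for Sgpl1 (limma BH-adjusted p = 6.79e-08) and 0.178 for Sgpp1 (limma BH-adjusted p = 0.0494). Of all tested genes 50.6% passed the same test.

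In the second starved WT sample S1pr1, S1pr3 and Sphk1 each had 132 reads, a number shared by 30 tested genes of that sample.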

How the results depend on the processing

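Of 752 values of single S1P genes under up to 19 alternatives, 8 of which leave out 1 sample, 0 changed direction in a call, 706 kept their side of the threshold or stayed within the spread, 31 of the untested values moved by more than the spread, 4 gained a call and 11 lost it. All 15 of the changed calls were of Sgpp1. Its difference between the responses lost the call without a filter (limma BH-adjusted p = 0.0574), with median-ratio scaling (0.0670), with quantile normalization (0.0530), without the trend (0.0759), with DESeq2 (0.0966) and in 6 of the 8 fits that left out a sample (0.0805 to 0.159). Its starved difference between the genotypes gained the call with total-read scaling (0.0310), edgeR (0.0283), edgeR on halved reads (0.0259) and without starved WT replicate 1 (0.0457). The cause was not tested.

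The median log2 difference of the 8 genes in WT, -0.41, was -0.603 with a pseudocount of 0.1, -0.676 with edgeR, -0.665 with edgeR on halved reads and -0.648 with DESeq2, and -0.461 to -0.363 with a sample left out. S1pr3 in WT was at -4.98 with the pseudocount of 0.1 and at -5.05 with edgeR.

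The comparison of the genotypes in normal medium depended most on the settings. Of the pathway genes 4 were called, 2 without a filter, 1 without the trend and 1 to 5 with a sample left out. Of all genes 1563 were called, 650 without a filter, 590 without the trend and 559 to 1706 with a sample left out (559 without normal WT replicate 1, 830 without normal WT replicate 2, 939 without normal RA replicate 2). The share of higher genes among these calls was 69.4%, and 40.5% with total-read scaling and 52.6% with quantile normalization.

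With a replicate block, 6, 0, 3 and 4 S1P genes were called in the RA response, in normal medium, under starvation and for the difference between the responses, as without it, and the calls over all genes went from 1563 to 2059 in normal medium and from 8207 to 8578 for the difference. The deviations of same-numbered samples from their group means correlated between -0.00764 and 0.157 over all tested genes, and between -0.0272 and 0.303 over genes with a mean above 10. In 3 of the 6 pairs of groups the latter was above 0.1, among them the 2 normal groups (0.197). Since not every pair was above 0.1 and the labels give no shared source, the numbers were not taken as pairing.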
